A study of Mus musculus with 20 samples.

Results

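The genes described here are 38 mouse genes of adipocyte lipid storage and lipogenesis, taken by symbol from both deposited count tables, which list 55486 genes each. RNA was sequenced from bone marrow and from kidney of C57BL/6 mice that were 10 weeks old when dosing began. Over 8 weeks they received intraperitoneal injections of vehicle, which was 5% dextrose, or of oxaliplatin (10 mg/kg, dissolved in the same vehicle), a platinum compound that forms adducts on DNA and is used against colorectal cancer. Each tissue and treatment had 5 libraries, 20 in all. The study describes males and females without a sex label for each library, Y-linked genes were expressed in all 20 libraries, and whether marrow and kidney came from the same mice is not stated. Marrow was taken 6 days after dosing ended and was spun out of femur and tibia, so the samples are mixed tissue with no sorting of cells. How fully each cell type was recovered is not stated. Total counts ran from 30660153 to 41140527 per marrow library and from 24393007 to 30925430 per kidney library. The tissue labels were checked against marker genes. The 9 late erythroid genes summed to 30514 to 53583 CPM (counts scaled to a fixed library total) in vehicle marrow and 299 to 468 CPM in vehicle kidney, and 8 proximal tubule genes summed to 18565 to 21664 CPM in vehicle kidney and 587 to 950 CPM in vehicle marrow.

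Adipocytes store fatty acids as triglyceride inside a lipid droplet that is coated with perilipins and CIDE proteins. Fatty acids enter from the blood after lipoprotein lipase frees them, or are made in the cell from acetyl-CoA, are joined to glycerol in the endoplasmic reticulum, and are released again by a chain of lipases. White adipocytes hold one large droplet, whereas brown adipocytes hold many and burn fat through the uncoupling protein UCP1. Marrow holds its own adipocytes, which share the mesenchymal stromal lineage, and these are known to increase after chemotherapy and irradiation. In kidney, several of the same enzymes work in tubule cells, and fat cells lie mainly around the organ and in its sinus.

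Sequence before the start site is shown for 5 members that differ in behaviour: Cidec, with the largest fold change in marrow, Adig and Fasn, also higher in marrow, Cd36, lower in kidney and not called in marrow, and Ucp1, with next to no counts in marrow. Each is the 250 bases before a RefSeq start site in GRCm38.p6, read on the gene's own strand, in a window that holds no annotated exon. Capitals mark matches on either strand to AGGTCA, the core that nuclear receptors such as PPARG bind, or to CCAAT, and no match to one of these motifs overlapped a match to another. The windows are chr6:113435761-113436010 (minus strand) for Cidec, chr2:158502362-158502611 (plus) for Adig, chr11:120824548-120824797 (minus) for Fasn, chr5:17835897-17836146 (minus) for Cd36 and chr8:83290098-83290347 (plus) for Ucp1.
Cidec: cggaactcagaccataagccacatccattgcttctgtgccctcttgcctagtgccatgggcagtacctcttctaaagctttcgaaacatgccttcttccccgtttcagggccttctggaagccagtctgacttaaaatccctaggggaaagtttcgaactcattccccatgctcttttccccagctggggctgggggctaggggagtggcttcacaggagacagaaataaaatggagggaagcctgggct
Adig: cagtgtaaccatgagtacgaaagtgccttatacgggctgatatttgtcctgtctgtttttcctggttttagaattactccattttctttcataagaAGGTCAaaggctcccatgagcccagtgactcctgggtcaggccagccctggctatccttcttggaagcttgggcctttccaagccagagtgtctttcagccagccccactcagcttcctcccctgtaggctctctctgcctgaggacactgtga
Fasn: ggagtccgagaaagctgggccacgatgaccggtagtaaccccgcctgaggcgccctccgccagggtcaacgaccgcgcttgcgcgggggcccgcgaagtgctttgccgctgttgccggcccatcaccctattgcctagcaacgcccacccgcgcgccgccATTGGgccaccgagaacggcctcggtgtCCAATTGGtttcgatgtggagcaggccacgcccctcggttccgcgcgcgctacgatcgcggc
Cd36: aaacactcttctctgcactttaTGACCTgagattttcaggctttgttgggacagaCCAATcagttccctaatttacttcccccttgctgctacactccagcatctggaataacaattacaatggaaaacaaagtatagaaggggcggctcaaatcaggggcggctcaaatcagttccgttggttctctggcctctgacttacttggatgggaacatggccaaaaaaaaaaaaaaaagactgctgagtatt
Ucp1: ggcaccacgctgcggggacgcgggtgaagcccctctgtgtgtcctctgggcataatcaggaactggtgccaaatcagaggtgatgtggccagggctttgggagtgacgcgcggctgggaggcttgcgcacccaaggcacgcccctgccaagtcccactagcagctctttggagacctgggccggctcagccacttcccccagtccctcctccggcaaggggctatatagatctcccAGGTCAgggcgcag

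Promoter entries existed for 27 of the 38 members, several with more than 1 start site, giving 40 windows. AGGTCA stood in 13 of the 40 windows (32.5%) and in 14.0% of all 32851 windows of the same length. Counted by gene, it stood in 11 of 27 members (40.7%) and in 15.8% of 27025 genes. By the call in marrow, it was present in 5 of the 17 members called higher there and in 5 of the 9 tested and not called. CCAAT was in 32.5% of member windows and 33.8% of all, TATAAA in 5.0% and 12.4%, and the E-box CACGTG in 5.0% and 6.02%, each searched on both strands. The direct repeat of AGGTCA spaced by 1 base, the DR1 arrangement that PPARG and RXR share, was in 0 of the 40 windows and in 0.0335% of all windows. These are letter matches in a short stretch, with no measurement of binding.

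In bone marrow, oxaliplatin was followed by higher RNA of most lipid storage genes. Of the 38 members, 36 had enough counts to be tested, 25 were higher after oxaliplatin and 0 were lower, where the background among all 22363 genes tested was 11.6% called higher and 11.8% called lower. A gene was called when edgeR's quasi-likelihood test gave an adjusted p under 0.05 and the fold change was beyond 1.5. In 24 members every oxaliplatin mouse lay above every vehicle mouse, an arrangement seen in 11.4% of all genes tested. The median log2 fold change was 1.52 over the 36 members and -0.04 over all genes tested. In bulk tissue, more fat cells and more of these RNAs per cell cannot be told apart. Summed over the 38 members, the level was 1834 to 2207 CPM in vehicle marrow and 3116 to 10314 CPM after oxaliplatin, with no overlap.

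**Figure D1:**
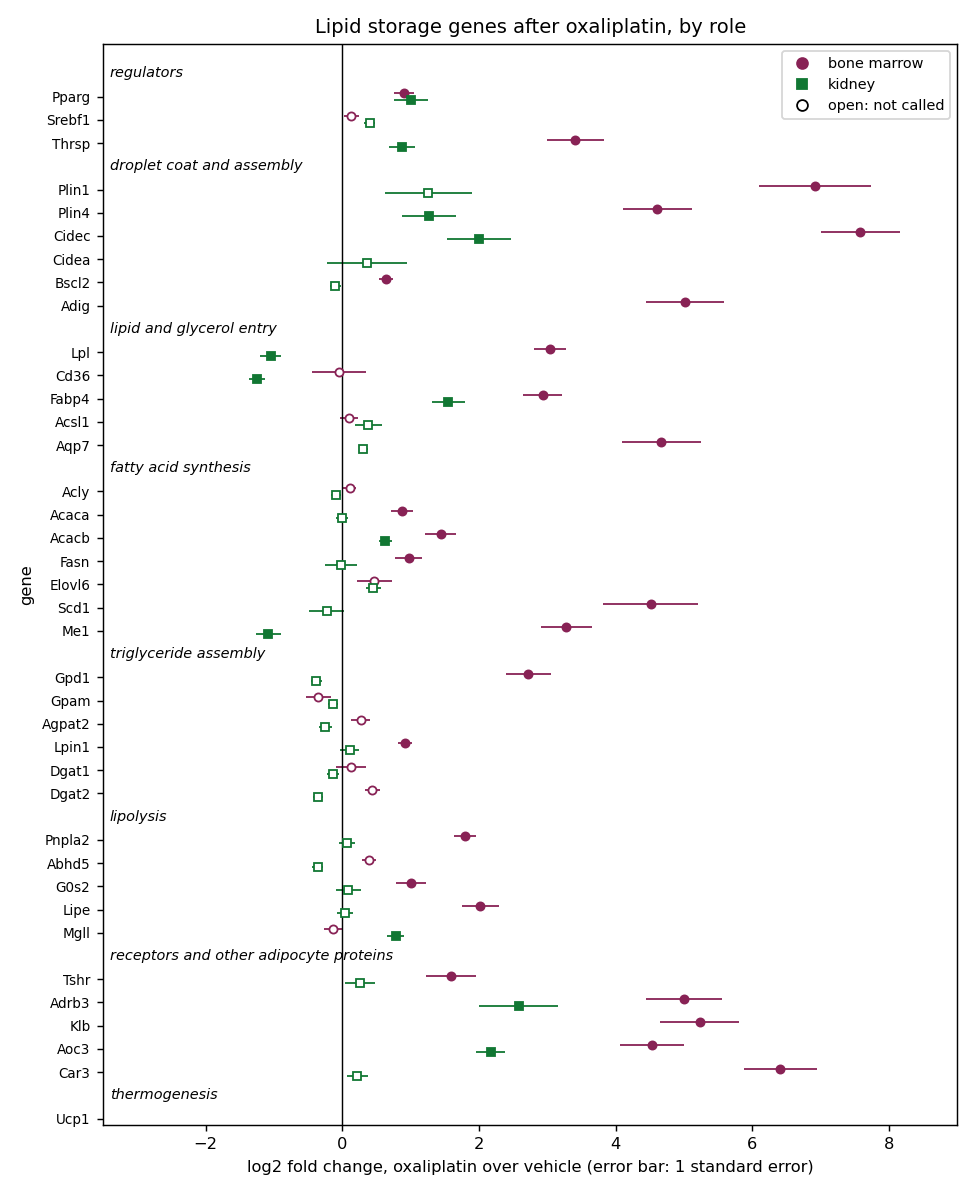
Log2 fold change of each gene, oxaliplatin over vehicle, with 1 standard error (x axis), for genes grouped by role (y axis), in bone marrow (circles) and kidney (squares); filled symbols were called, open ones were tested and not called, and a gene with no symbol had too few counts. Marrow values reach 7.58 for Cidec, whereas kidney values lie between -1.25 for Cd36 and 2.58 for Adrb3.

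Of the proteins that coat and build the droplet, CIDEC and PLIN1 had the highest fold changes of the 36 members tested. CIDEC, which fuses small droplets into a large one, is encoded on chromosome 6 (113424634 to 113435760, minus strand, GRCm38). Its RNA was at 0.569, 0.552, 0.252, 1.22 and 0.422 CPM in vehicle mice 1 to 5 and at 162.4, 85.1, 154.3, 155.7 and 29.5 CPM in oxaliplatin mice 1 to 5. Oxaliplatin mouse 5 was the lowest of its group and still far above every vehicle mouse. The log2 fold change was 7.58 ± 0.58 (SE), or 191-fold, with an adjusted p of 3.18e-06. PLIN1, the perilipin that gates access of lipases to the droplet (chromosome 7, 79720218 to 79732903, minus strand), was at 1.52, 1.57, 0.157, 2.19 and 0.682 CPM with vehicle and at 167.3, 70.1, 210.0, 282.2 and 21.6 CPM with oxaliplatin. The groups did not overlap, and after oxaliplatin mouse 4 was the highest and mouse 5 the lowest. Plin1 rose by a log2 fold change of 6.92 ± 0.82 (adjusted p = 9.96e-05).

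Plin4, another perilipin of adipocytes, went from 6.09 ± 1.25 CPM (SD, n = 5) to 149 ± 91.5, a log2 fold change of 4.61 ± 0.5 (adjusted p = 3.49e-05). Adig, which encodes adipogenin, a small membrane protein of fat cells, went from 0.138 ± 0.0857 to 4.64 ± 2.4 CPM (log2 fold change 5.02 ± 0.57). In both, oxaliplatin mouse 4 was the highest and mouse 5 the lowest, and the groups did not overlap. The vehicle level of Adig lay close to the floor of 3 counts, with 23 counts summed over the vehicle mice. Bscl2, the gene of seipin, which sits where droplets bud from the endoplasmic reticulum in many cell types, rose the least of this group, from 43.2 ± 2.41 to 67.5 ± 8.3 CPM (log2 fold change 0.64 ± 0.096), and its call is lost without oxaliplatin mouse 1, where the log2 fold change of 0.584 falls just under the fold threshold. Cidea, the CIDE protein most abundant in brown fat, had too few counts to be tested in marrow: 2, 1, 0, 0 and 1 with vehicle and 33, 10, 10, 16 and 4 with oxaliplatin. The ratio of its summed counts, scaled for library size, was 15.6, with an exact 95% interval of 5.83 to 58.7 that covers counting error only.

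**Figure D2:**
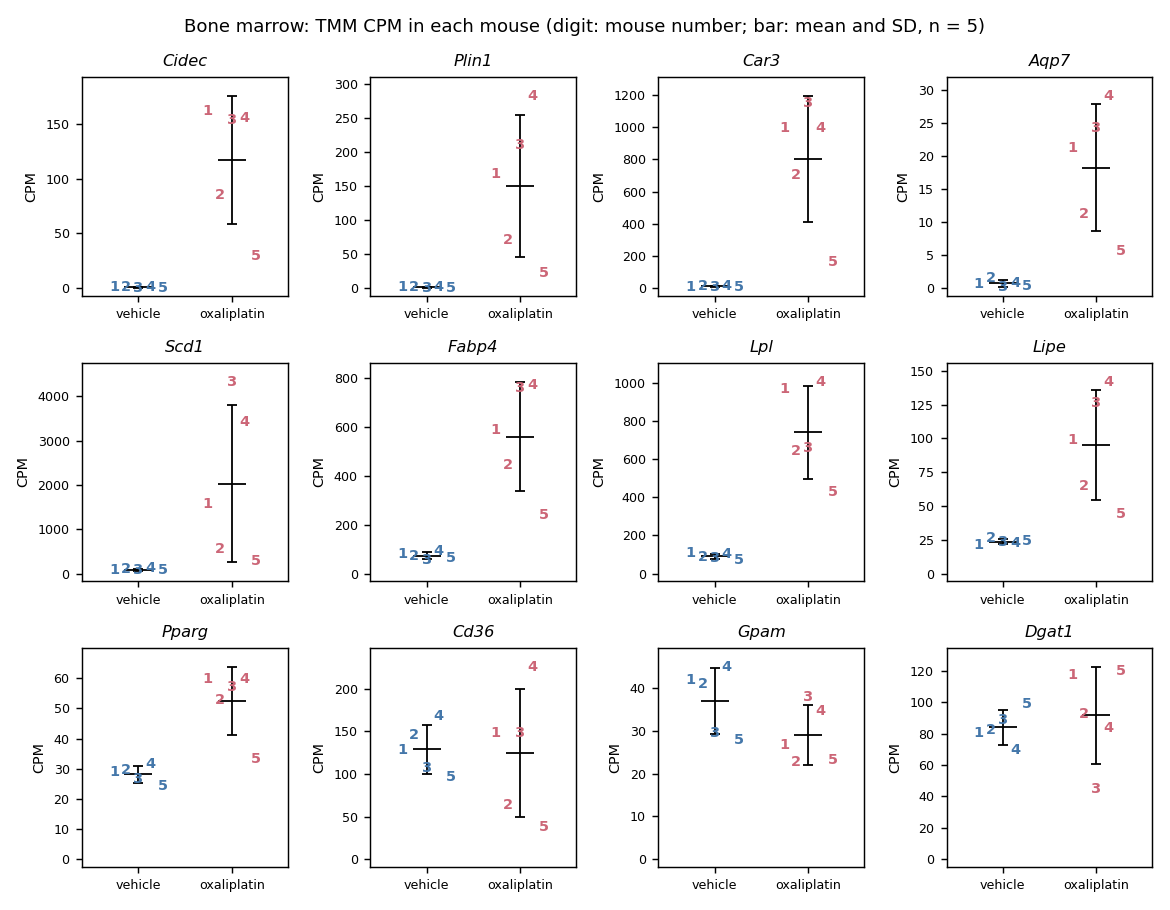
TMM-scaled CPM in bone marrow (y axis, a separate scale for each gene) for 12 genes by treatment (x axis); each digit is the mouse of that number and the bars give mean and SD of 5 mice. The first 9 genes separate the groups, with oxaliplatin mouse 5 lowest in each, while Cd36, Gpam and Dgat1 overlap.

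Genes for bringing lipid and glycerol into or out of the cell divided. LPL frees fatty acids from circulating lipoproteins at the capillary wall. It was at 107.5, 87.9, 80.7, 101.1 and 70.8 CPM in the vehicle mice and at 966.0, 642.5, 655.8, 1003.7 and 427.4 CPM in the oxaliplatin mice, a log2 fold change of 3.04 ± 0.23 (adjusted p = 8.8e-07). Every treated mouse lay far above every vehicle mouse. FABP4, the fatty acid carrier of the adipocyte cytosol, went from 73.2 ± 14.5 to 559.2 ± 223.9 CPM (log2 fold change 2.93 ± 0.29), and AQP7, the channel through which glycerol leaves the fat cell, from 0.708 ± 0.541 to 18.3 ± 9.66 CPM (4.67 ± 0.58). CD36, a fatty acid receptor of fat cells, macrophages, platelets and red cell precursors, was at 127.6, 145.5, 106.6, 168 and 96.6 CPM with vehicle and at 147.9, 64.1, 148.5, 225 and 37.2 CPM with oxaliplatin. Its groups overlapped entirely: the treated mice held both the highest and the lowest values, and the log2 fold change of -0.05 ± 0.4 (adjusted p = 0.942) changes sign with the scaling, being 0.123 by library size alone. Acsl1, an acyl-CoA synthetase, was at 294.6 ± 18 and 315.3 ± 60.9 CPM (adjusted p = 0.593).

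Among the enzymes of fatty acid synthesis, 5 of 7 were higher and the other 2, Acly and Elovl6, were not called. SCD1, which puts the double bond into saturated fatty acids, stood out for its level and for its spread. It was at 74.4, 95.7, 75.2, 125.9 and 76.6 CPM with vehicle and at 1571.9, 549, 4330.3, 3435 and 283.9 CPM with oxaliplatin. Mice 3 and 4 lay far above mice 2 and 5 of the same group, and still no treated mouse overlapped the vehicle group (log2 fold change 4.51 ± 0.7, adjusted p = 0.000535). Malic enzyme 1 (Me1), a source of NADPH, went from 2.09 ± 0.458 to 20.4 ± 10.8 CPM (log2 fold change 3.28 ± 0.38). The acetyl-CoA carboxylases and fatty acid synthase rose less: Acaca by a log2 fold change of 0.87 ± 0.16, Acacb by 1.44 ± 0.23 and Fasn by 0.97 ± 0.2, the last from 167.5 ± 10.1 to 327.1 ± 110 CPM. Acly, the citrate lyase that supplies acetyl-CoA, was at 225.6 ± 21.2 and 243.9 ± 18.9 CPM (adjusted p = 0.392), and Elovl6, which lengthens palmitate, at 12.6 ± 2.08 and 17.4 ± 7.72 CPM (adjusted p = 0.177). With a Y-linked covariate Elovl6 would be called (log2 fold change 0.738, adjusted p = 0.0435).

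Assembly of triglyceride had the smallest share of called members among the roles tested, 2 of 6. Gpd1, which makes glycerol 3-phosphate, went from 17.8 ± 5.26 to 117.2 ± 48.8 CPM (log2 fold change 2.72 ± 0.33, adjusted p = 8.59e-05), and Lpin1, a phosphatidate phosphatase, from 50.9 ± 3.17 to 96.3 ± 13.8 CPM (0.92 ± 0.1, adjusted p = 2.36e-05). The other 4 catalyse the acylation steps. Dgat2 passed the p threshold with too small a change (log2 fold change 0.44 ± 0.11, adjusted p = 0.00847) and would be called under scaling by library size alone (0.588). Gpam, the first acyltransferase, was at 37 ± 7.75 and 29 ± 6.89 CPM, Agpat2 at 66.2 ± 5.96 and 79.9 ± 18.4 CPM, and Dgat1 at 84 ± 10.9 and 91.6 ± 30.7 CPM, all with overlapping groups (adjusted p = 0.153, 0.174 and 0.704).

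The lipases that take triglyceride apart were higher too, apart from the last of the chain. PNPLA2 (ATGL), which removes the first fatty acid, was at 82, 75.8, 72.3, 83 and 70.3 CPM with vehicle and at 343.4, 239.3, 286.4, 298.5 and 164.6 CPM with oxaliplatin. These groups lay well apart (log2 fold change 1.8 ± 0.16, adjusted p = 4.05e-06). Lipe, the hormone-sensitive lipase of the next step, went from 23.5 ± 1.8 to 95.2 ± 40.8 CPM (2.02 ± 0.27). G0s2, an inhibitor of PNPLA2, went from 15.1 ± 2.18 to 30.2 ± 10.2 CPM (1 ± 0.22, adjusted p = 0.00318), although oxaliplatin mouse 5 at 16.1 CPM lay inside the vehicle range of 12.1 to 17.9. Abhd5, the activator of PNPLA2, changed by a log2 fold change of 0.39 ± 0.1 (adjusted p = 0.0108), under the fold threshold, and Mgll, the monoglyceride lipase that ends the chain, was at 149.5 ± 10.5 and 135.4 ± 27.9 CPM (adjusted p = 0.457).

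Of the 3 regulators, Pparg and Thrsp rose in marrow. PPARG, the nuclear receptor that drives fat cell formation, was at 28.8, 29.7, 26.5, 31.6 and 24.3 CPM with vehicle and at 59.6, 52.7, 57.1, 59.8 and 33.2 CPM with oxaliplatin. Mouse 5 lay only just above the vehicle mice, and the log2 fold change was 0.9 ± 0.15 (adjusted p = 0.000442). Thrsp, a lipogenic protein under thyroid hormone control, went from 2.74 ± 0.787 to 29.1 ± 15.7 CPM (3.41 ± 0.42, adjusted p = 7.75e-05). Srebf1, the sterol response factor of lipogenesis, was at 99.5 ± 8.6 and 109.1 ± 17.8 CPM (adjusted p = 0.412).

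All 5 receptors and other adipocyte proteins were higher. CAR3, a carbonic anhydrase abundant in fat and in slow muscle, was at 8.12, 10.1, 5.48, 14.2 and 9.31 CPM with vehicle and at 998.3, 704.6, 1148.8, 994.3 and 164.2 CPM with oxaliplatin (log2 fold change 6.41 ± 0.53, or 84.8-fold, adjusted p = 5.68e-06). Aoc3, the vascular adhesion protein and amine oxidase of fat cells and smooth muscle, went from 3.07 ± 0.424 to 70.9 ± 43.4 CPM (4.53 ± 0.47). Klb, the co-receptor for FGF21, went from 0.139 ± 0.0539 to 5.4 ± 3.44 CPM (5.23 ± 0.58), and Adrb3, the adrenergic receptor that triggers lipolysis, from 0.147 ± 0.0296 to 4.79 ± 3.28 CPM (5 ± 0.55). Vehicle levels of both lay close to the floor of 3 counts, 0.0854 to 0.0974 CPM in these libraries. Tshr, the thyrotropin receptor, rose from 5.13 ± 0.663 to 15.4 ± 8.75 CPM (1.59 ± 0.37, adjusted p = 0.00568), with mouse 5 at 5.22 CPM inside the vehicle range.

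Per kilobase of annotated exon, the members that ranked highest in marrow changed with treatment. In vehicle marrow the first 5 were Acly at 42.7 ± 4.01 CPM per kb, Cd36 at 35.9 ± 8.06, Agpat2 at 31.1 ± 2.8, Mgll at 29.4 ± 2.08 and Acsl1 at 28.1 ± 1.72, and from Cd36 on each neighbour lay within 1 SD of the next. After oxaliplatin the first 5 were Scd1 at 415.8 ± 364.5 CPM per kb, Car3 at 280.0 ± 136.5, Fabp4 at 124.6 ± 49.9, Pnpla2 at 88.2 ± 22.5 and Lpl at 70.5 ± 23.1, with spreads that overlap between neighbours. Cidec went from rank 31 to rank 6 of the 38 and Plin1 from rank 32 to rank 12. Exon length is the union over all annotated transcripts, which understates genes with long unspliced isoforms such as Fabp4.

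The treated mice differed in level. Mouse 5 was the lowest of the oxaliplatin group in 25 of the 25 members called higher. Mouse 4 was the highest in 13 of them, mouse 1 in 6, mouse 3 in 5 and mouse 2 in 1. Leaving out mouse 5 kept the number of called members at 25. Mouse 5 also had the lowest Y-linked expression of the marrow libraries, at a mean log2 CPM of 4.61 against 5 to 5.42 in the other 9. With a Y-linked covariate in the fit, 26 members were called higher, and the part of this difference in the levels of mouse 5 itself was not tested. Mouse 4 was also the highest and mouse 5 the lowest for Adipoq, the adiponectin gene, which is no member and was at 240.6, 132.4, 217, 242.3 and 74.7 CPM in oxaliplatin mice 1 to 5, against 14.4 to 34.5 CPM with vehicle.

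Markers of other cell types also differed between the marrow groups, where 11.6% of all genes tested were called higher and 11.8% lower. Of 10 skeletal muscle genes, 9 were called higher, with summed levels of 38.2 to 320.5 CPM with vehicle and 130.9 to 1844.7 CPM with oxaliplatin and none of the 10 separating the groups. The muscle sum in oxaliplatin mice 1 to 5 was 724.5, 737.5, 1844.7, 130.9 and 842.5 CPM. The sum of the 38 members in the same mice was 7680.2, 4866.8, 10313.6, 10029.2 and 3116.4 CPM. Mouse 3 was the highest in both sums. Mouse 4, highest in most of the called members, had the least muscle RNA of its group, within the vehicle range. Endothelial markers (5 of 7 called higher) summed to 228.4 to 286.2 CPM and 310.9 to 603.4 CPM, and marrow stromal markers (2 of 7 called higher) to 1359.8 to 1743.3 CPM and 1673.8 to 2697.5 CPM. Macrophage markers (5 of 10 called higher) summed to 1302.5 to 1729.6 CPM with vehicle and 1435.8 to 3348.1 CPM with oxaliplatin. Late erythroid markers were lower in 9 of 9 cases, at 3652 to 10190 CPM after oxaliplatin, and B cell markers in 5 of 6, at 235.8 to 424.5 CPM with vehicle and 55.5 to 75.7 CPM with oxaliplatin. No defining marker of these lists was at 0 in all marrow libraries. Their part in the lipid storage result was not tested. With the hemoglobin genes left out of the table, the number of members called higher was 25 as before. That fit does not test the part of erythroid or any other cells.

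**Figure D3:**
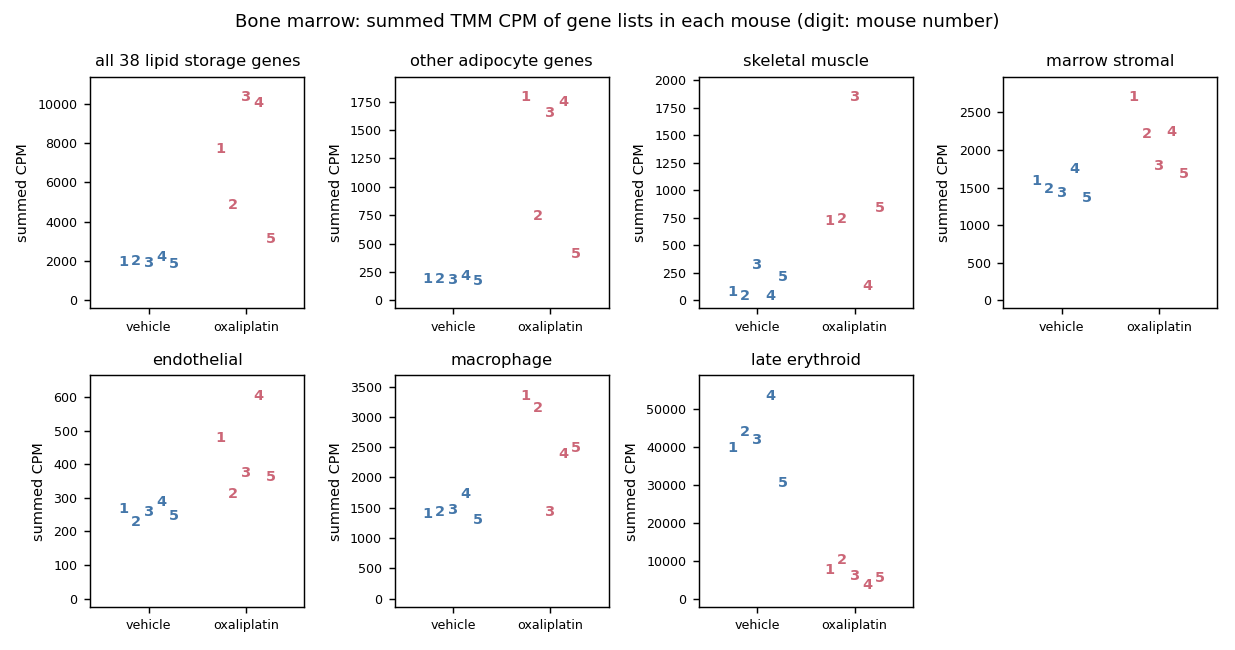
Summed TMM-scaled CPM of the 38 genes and of 6 lists of other genes in bone marrow (y axis, a separate scale for each list) by treatment (x axis); each digit is the mouse of that number. The 38 genes and the other adipocyte genes run lowest in oxaliplatin mouse 5 and skeletal muscle in mouse 4. Both the 38 genes and skeletal muscle are highest in mouse 3.

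Most other adipocyte genes were higher in marrow as well. Of 10, 9 were called higher and 1 lower, where 11.6% of all genes tested were called higher and 11.8% lower. Cfd, which encodes adipsin, went from 6.96 ± 3.68 to 701.3 ± 450.2 CPM (log2 fold change 6.65 ± 0.71, adjusted p = 4.14e-05), Adipoq from 24.5 ± 8.52 to 181.4 ± 74.6 CPM (2.89 ± 0.36) and Cebpa, a factor of both fat cells and myeloid cells, by a log2 fold change of 1.21 ± 0.14. The 1 that fell was Slc2a4, the insulin-responsive glucose transporter of fat and muscle, named here after its values were seen, from 43.1 ± 6.94 to 17.7 ± 7.44 CPM (-1.29 ± 0.28, adjusted p = 0.00366). A wider list of 31 droplet and lipid enzymes that are less tied to fat cells moved less uniformly, with 9 higher, 3 lower and 17 not called among 29 tested. By the rule of highest level, Lpin2 fell (log2 fold change -1.04 ± 0.11), and Scd2 (0.25 ± 0.12) and Acsl5 (-0.11 ± 0.11) were not called.

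White and brown fat genes were examined side by side, in lists chosen with earlier results of these data known. Of 8 white fat genes outside the 38, 7 were tested in marrow and 6 were higher, where 11.6% of all genes tested were called higher. Lep, the leptin gene, was at 0.0632, 0, 0, 0.142 and 0 CPM with vehicle and at 21.4, 6.36, 13, 17.4 and 2.37 CPM with oxaliplatin. Slc7a10 (ASC-1), a white fat surface marker, went from 0.0901 ± 0.0844 to 9.52 ± 7.3 CPM, and Retn, the resistin gene, from 0.833 ± 0.182 to 11.8 ± 9.73 CPM. None of these 3 overlapped between groups, an arrangement with the treated mice higher that held for 11.4% of all genes tested. Nnat (log2 fold change 0.92 ± 0.26), Hoxc8 (2.3 ± 0.51) and Hoxc9 (1.52 ± 0.38) were higher as well, Wfdc21 was not called (0.24 ± 0.26) and Tcf21 had too few counts.

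Ucp1, the defining brown fat gene, was all but absent from marrow, with 2, 1, 0, 0 and 0 counts in the vehicle mice and 0, 0, 0, 0 and 2 in the oxaliplatin mice, all at or under the floor of 3 counts. At this depth a difference was not detectable. Of 14 other brown fat genes, 10 were tested, 5 were higher and 0 lower, where 11.6% and 11.8% of all genes tested were called so. Slc36a2 (PAT2), an amino acid transporter of brown fat, rose from 2.7 ± 0.613 to 20.6 ± 9.74 CPM without overlap (log2 fold change 2.93 ± 0.33, adjusted p = 3e-05). The potassium channel gene Kcnk3 was higher by 3.07 ± 0.63, Prdm16 by 0.96 ± 0.21 and Ppargc1a by 0.93 ± 0.33, on the log2 scale (adjusted p = 0.00235, 0.00281 and 0.0459). Kcnk3 and Ppargc1a overlapped between groups, and Prdm16 did not. Cox8b, a respiratory subunit of brown fat and of muscle, was at 1.15, 0.564, 2.56, 0.267 and 1.16 CPM in oxaliplatin mice 1 to 5 against 0.233 to 0.346 CPM with vehicle (1.95 ± 0.52, adjusted p = 0.011). Its highest and lowest treated mice, 3 and 4, were also those with the most and the least muscle RNA. The part of muscle in the Cox8b levels was not tested. Dio2, Ebf2, Cox7a1, Cpt1b and P2rx5 were tested and not called, with log2 fold changes of 0.23 ± 0.17, 0.5 ± 0.3, 0.56 ± 0.28, -0.65 ± 0.44 and 0.26 ± 0.29. Zic1, Lhx8, Elovl3 and Otop1 had too few counts. The median log2 fold change was 2.3 over the 7 white genes and 0.75 over the 10 brown genes tested, and the difference between the lists was not tested.

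**Figure D4:**
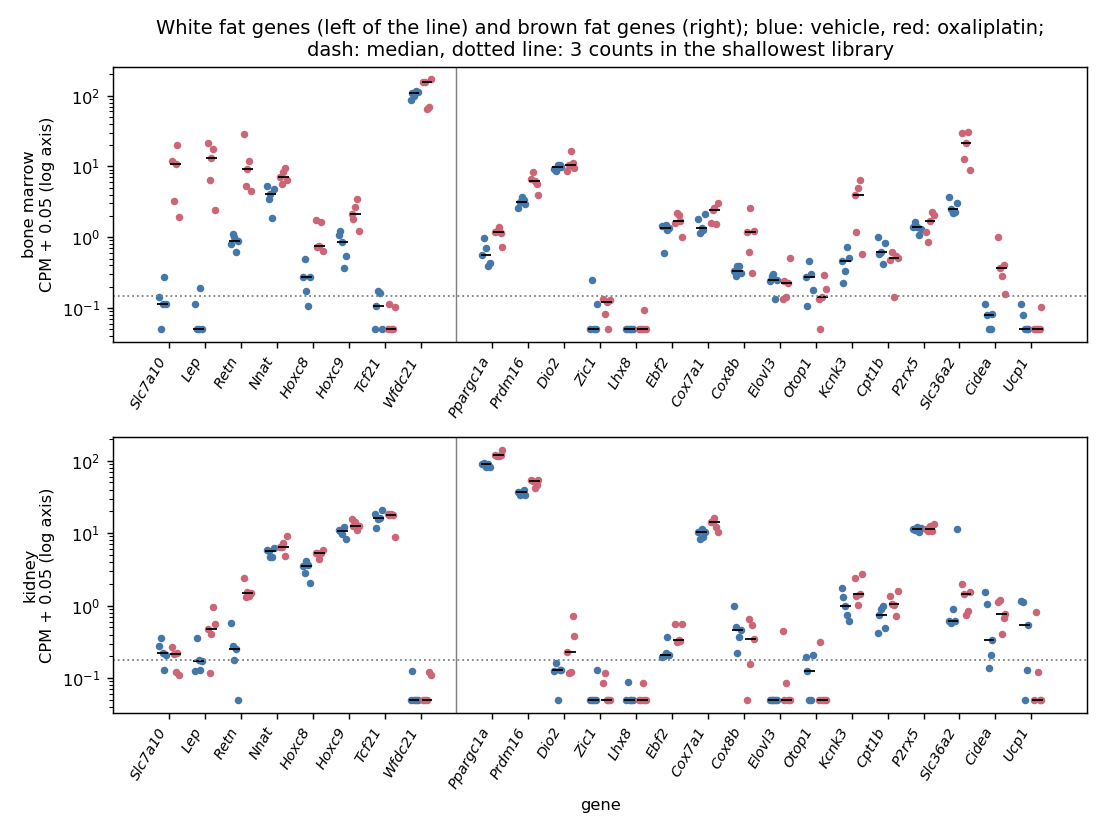
CPM plus 0.05 on a log axis for white fat genes (left of the vertical line) and brown fat genes (right) in bone marrow (top) and kidney (bottom), 5 vehicle mice in blue and 5 oxaliplatin mice in red for each gene, with the median as a dash and 3 counts in the shallowest library as a dotted line. In marrow, Slc7a10 and Lep rise from near the dotted line in the treated mice, and Ucp1 stays below it in all mice.

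Kidney showed a smaller and mixed response. Of the 38 members, 35 were tested, 9 were higher and 3 lower, where 7.68% of all 19293 genes tested were called higher and 3.81% lower. No overlap with the treated mice higher held for 10 members (9.64% of all genes) and with the treated mice lower for 6 (11.0%). The median log2 fold change was 0.11 over the 35 members and 0.02 over all genes. Summed over the 38, the level was 3751 to 4243 CPM in vehicle kidney and 3230 to 3600 CPM after oxaliplatin, without overlap. Abundant members weigh most in this sum. Mean levels went from 460.3 to 218.2 CPM for Me1, from 382.1 to 185.0 for Lpl and from 303.3 to 127.4 for Cd36.

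The 3 members that fell concern fatty acid uptake and NADPH supply. Cd36 was at 275.3, 271.3, 332.7, 289 and 348 CPM in the vehicle mice and at 102.8, 143.7, 140.4, 148 and 101.8 CPM in the oxaliplatin mice (log2 fold change -1.25 ± 0.12, adjusted p = 5.52e-06). Lpl was at 342.6, 263.9, 509.3, 339 and 455.7 CPM with vehicle and at 184.9, 167.3, 180.9, 190.7 and 201.4 CPM with oxaliplatin (-1.05 ± 0.15, adjusted p = 0.000386), and its spread was far smaller in the treated group. Me1 was at 467.2, 442.1, 463.4, 428.1 and 500.3 CPM and at 156.7, 289.8, 248.9, 250.3 and 145.5 CPM (-1.08 ± 0.18, adjusted p = 0.0015). None of the 3 overlapped between groups. A further 4 members passed the p threshold with smaller decreases: Gpd1 (-0.38 ± 0.076), Dgat2 (-0.36 ± 0.074), Abhd5 (-0.36 ± 0.076) and Agpat2 (-0.25 ± 0.093). Gpd1 was also the most abundant member in vehicle kidney per kilobase of exon, at 159.2 ± 10.9 CPM per kb, followed by Me1 at 119.6 ± 7.15 and Dgat2 at 101.8 ± 4.16.

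**Figure D5:**
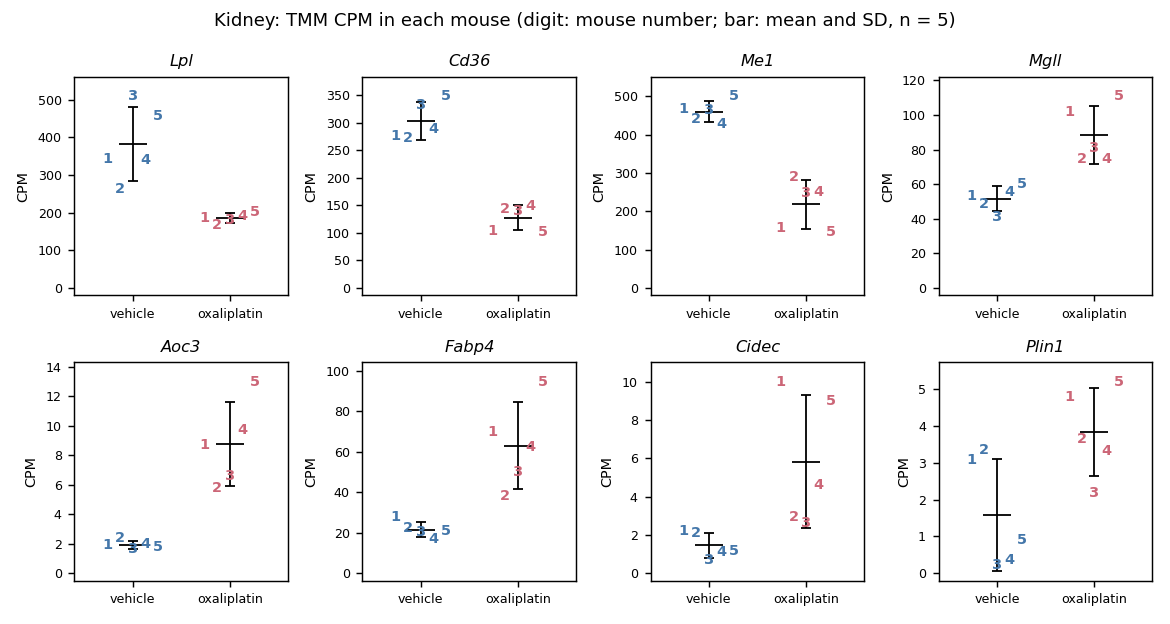
TMM-scaled CPM in kidney (y axis, a separate scale for each gene) for 8 genes by treatment (x axis); each digit is the mouse of that number and the bars give mean and SD of 5 mice. Lpl, Cd36 and Me1 lie lower and Mgll, Aoc3, Fabp4 and Cidec higher in every treated mouse, while the Plin1 groups overlap, with vehicle mice 1 and 2 at 3.09 and 3.35 CPM.

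Of the 9 members higher in kidney, 7 are given here first. All members were picked as fat cell genes, and which cells carried these RNAs was not tested. Other members abundant in fat were not called, among them Car3 (0.22 ± 0.15), Lipe (0.04 ± 0.12), Pnpla2 (0.07 ± 0.12) and Scd1 (-0.23 ± 0.25). Aoc3 went from 1.94 ± 0.273 to 8.76 ± 2.84 CPM (log2 fold change 2.17 ± 0.21, adjusted p = 1.98e-06) and Fabp4 from 21.5 ± 3.86 to 62.9 ± 21.3 CPM (1.55 ± 0.24, adjusted p = 0.00146). Both separated the groups completely. Cidec went from 1.45 ± 0.664 to 5.84 ± 3.47 CPM (2 ± 0.47), Adrb3 from 0.196 ± 0.186 to 1.2 ± 0.72 CPM (2.58 ± 0.58), Pparg from 1.99 ± 0.326 to 3.99 ± 1.62 CPM (1 ± 0.25) and Thrsp from 3.62 ± 0.879 to 6.65 ± 1.73 CPM (0.88 ± 0.19). Plin4, from 5.95 ± 0.803 to 14.3 ± 8.9 CPM (1.27 ± 0.39, adjusted p = 0.037), is the least stable of the 9: its call is lost in 7 of the 10 fits that leave out 1 mouse, with adjusted p up to 0.0821, among them every vehicle mouse in turn and oxaliplatin mice 1 and 4. Plin1 (1.26 ± 0.64, adjusted p = 0.175) was not called.

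The other 2 members higher in kidney were Mgll and Acacb. Mgll was at 53.1, 48.6, 40.8, 55.2 and 59.9 CPM with vehicle and at 101.7, 74.7, 81.1, 74.5 and 110.8 CPM with oxaliplatin (log2 fold change 0.78 ± 0.13, adjusted p = 0.000595). Acacb, the carboxylase that restrains fatty acid oxidation at the mitochondrion, went from 76 ± 3.89 to 117.2 ± 20.8 CPM (0.63 ± 0.098), and its call is lost without oxaliplatin mouse 5, where the log2 fold change of 0.538 is under the fold threshold. Srebf1 (0.4 ± 0.081), Elovl6 (0.45 ± 0.11) and Aqp7 (0.31 ± 0.072) separated the groups with the treated mice higher, under the fold threshold, and Elovl6 would be called under scaling by library size alone (0.589).

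Some fat cell genes outside the members were called in kidney. Of 10, 9 were tested, 3 were higher and 0 lower, where 7.68% of all genes tested were called higher and 3.81% lower. These 3 were Adipoq, Cfd and Rbp4, named after their values were seen. Adipoq was at 1.57, 0.609, 0.0863, 0.362 and 0.162 CPM with vehicle and at 6.27, 2.55, 1.58, 3.19 and 3.95 CPM with oxaliplatin. The 3 most abundant genes of that list in kidney, Pck1, Angptl4 and Cebpa, were not called. Among white fat genes, Retn (log2 fold change 2.81 ± 0.46) and Hoxc8 (0.71 ± 0.18) were higher of 5 tested, and of 7 brown fat genes tested, 0 were called, although Ppargc1a (0.49 ± 0.069) and Prdm16 (0.47 ± 0.08) separated the groups. Such separation with the treated mice higher held for 9.64% of all genes tested. Ucp1 had 30, 28, 0, 2 and 12 counts in the vehicle kidneys and 0, 23, 2, 0 and 0 in the treated ones. In kidney, endothelial markers were higher in 3 of 7 cases (summed 281.8 to 293.9 and 351.3 to 499.7 CPM), macrophage markers higher in 2 and lower in 4 of 9 tested (182.9 to 215.9 and 121.3 to 148.7 CPM), and proximal tubule markers lower in 2 of 8. Their part in these differences was not tested.

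The response differed between the tissues for most members. In the fit over all 20 libraries, 37 members were tested, the log2 fold change was larger in marrow for 29 and smaller for 1, where 17.0% and 13.1% of all 24321 genes passed at an adjusted p under 0.05. Lpl and Me1 were called in opposite directions, higher in marrow and lower in kidney, and the difference between their log2 fold changes was 4.15 ± 0.28 (adjusted p = 7.22e-10) and 4.43 ± 0.45 (adjusted p = 4.02e-07). Car3, at 20.6 ± 4.38 and 24.1 ± 4.29 CPM in kidney, had the largest difference, 6.26 ± 0.53. Another 8 members were called higher in both tissues. Mgll was the member with the larger increase in kidney (-0.86 ± 0.2, marrow minus kidney, adjusted p = 0.00236). For Pparg the difference was -0.04 ± 0.29 (adjusted p = 0.956), so that its rises of 0.9 in marrow and 1 in kidney were not told apart.

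Reads of a few members may be shared with genes on the opposite strand, since strand use in counting is not stated. Annotated exons on the other strand cover 24.9% of the exon bases of Adrb3, 16.0% of Abhd5 and 15.6% of Lipe, and a smaller share of the other members.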

How the data were processed

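Bulk RNA was measured in 20 libraries, 5 for each tissue and treatment. The authors deposited raw counts of reads per gene, which the study's methods describe as uniquely aligned, unambiguous reads aligned by STAR (Ensembl release 101) and counted in Partek Flow. The submitters' processing notes list STAR, featureCounts and Salmon instead. Library preparation is also given in 2 ways, as a SMARTer kit and as ribosomal RNA removal with random hexamers. Each table had 55774 lines, and 287 repeats and 1 line lacking a value were dropped. Positions and exon lengths came from GENCODE mouse release 21 (GRCm38), and promoter sequence from RefSeq (GRCm38.p6).

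After filterByExpr (minimum count 10) and TMM scaling, edgeR 4.0.16 in R 4.3.3 was run with its robust quasi-likelihood test, two-sided, in each tissue with treatment as the only term, and over all 20 libraries for the tissue by treatment interaction, with Benjamini-Hochberg adjustment over all genes tested. Calls needed an adjusted p under 0.05 and, within a tissue, a fold change beyond 1.5. Levels are TMM-scaled CPM, with the SD taken over 5 mice, and ± after a log2 fold change is its standard error. A floor of 3 counts corresponds to 0.0667 to 0.0974 CPM in marrow and 0.0898 to 0.129 CPM in kidney, covering counting error only. Labels number the libraries of each group but name no animals, so p-values measure the spread between these libraries. No 2 libraries of a group agreed within sampling noise. The script was tested on simulated data. DESeq2 1.42.0, other scalings and filters, blocking by replicate number, a Y-linked covariate, hemoglobin genes left out in marrow and each mouse left out in turn were the alternatives.

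The 38 members and all lists were chosen with earlier results of these data known. All members are named, with all genes of the white and brown fat lists and, of each other list, the 3 tested genes with the highest mean CPM in the tissue, as needed.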

Additional observations from a re-analysis of the deposited data

Results flagged for a closer look

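In 7 of 149 groups of 5 mice, 1 mouse stood apart from the other 4 by the gap test of Dixon at the 95% level, and chance gives about 1 in 20. In bone marrow these were Pparg in oxaliplatin mouse 5 (33.2 CPM, others 52.7 to 59.8), Adig in vehicle mouse 4 (0.285 CPM, others 0.0632 to 0.126), Klb in vehicle mouse 2 (0.233 CPM, others 0.0944 to 0.13) and Agpat2 in vehicle mouse 1 (55.6 CPM, others 67.9 to 69.8). In kidney they were Dgat1 in vehicle mouse 2 (31.8 CPM, others 37.2 to 38.5), Adrb3 in oxaliplatin mouse 1 (2.47 CPM, others 0.754 to 1.08) and Ucp1 in oxaliplatin mouse 2 (0.773 CPM, others 0 to 0.0718).

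The response to oxaliplatin differed between bone marrow and kidney in 30 members by edgeR's interaction test, given as the log2 fold change in marrow minus that in kidney. Among droplet proteins the difference was 5.75 for Plin1, 5.65 for Cidec, 3.96 for Adig, 3.44 for Cidea, 3.42 for Plin4 and 0.8 for Bscl2. For lipid and glycerol entry it was 4.42 for Aqp7, 4.15 for Lpl, 1.46 for Fabp4 and 1.27 for Cd36. For fatty acid synthesis it was 4.83 for Scd1, 4.43 for Me1, 1.05 for Fasn, 0.93 for Acaca and 0.86 for Acacb, and for Thrsp 2.59. For triglyceride assembly it was 3.18 for Gpd1, 0.87 for Lpin1, 0.85 for Dgat2 and 0.57 for Agpat2. For lipolysis it was 2.05 for Lipe, 1.79 for Pnpla2, 0.97 for G0s2, 0.8 for Abhd5 and -0.86 for Mgll. For receptors and other proteins it was 6.26 for Car3, 3.77 for Klb, 2.48 for Adrb3, 2.43 for Aoc3 and 1.41 for Tshr. The difference of Cd36 lost its call in 11 and that of Adrb3 in 13 of the 20 edgeR fits that leave out 1 mouse. That of Cidea was lost without kidney vehicle mouse 1 (adjusted p = 0.0545), that of Klb without kidney vehicle mouse 2 (adjusted p = 0.131) and that of Tshr without marrow oxaliplatin mouse 3 (adjusted p = 0.0508). That of Agpat2 was lost with a Y-linked covariate (0.33, adjusted p = 0.0714). Cidea in marrow and Adig and Klb in kidney rest on 4, 19 and 10 summed vehicle counts.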

How the results depend on the processing

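Over all alternatives, members called higher in marrow numbered 24 to 26 and members called lower 0. Kidney had 8 to 10 higher and 3 lower, and the tissue difference 25 to 29 larger and 1 smaller in marrow. Scaling by library size alone moved the median log2 fold change of all genes from -0.04 to 0.11 in marrow and from 0.02 to 0.16 in kidney, the higher share among called genes from 49.6% to 63.4% and from 66.8% to 82.7%, and the kidney calls over all genes to 2245 higher and 470 lower. It turned the log2 fold change of Cd36 (0.123) and Mgll (0.0129) in marrow and of Acaca (0.133), Fasn (0.106), Acly (0.0414) and Bscl2 (0.029) in kidney, none of them called. A mean of at least 50 counts turned kidney Acaca (0.035) and Fasn (0.0136). A Y-linked covariate turned marrow Cd36 (0.529), Mgll (0.087) and Dgat1 (-0.15), and the tissue difference of Pparg (0.293) and Gpam (0.00263), and ended the calls of kidney Plin4 (adjusted p = 0.0512) and of the Agpat2 tissue difference (0.33, adjusted p = 0.0714). Y-linked genes were expressed in all 20 libraries, at a mean log2 CPM of 4.26 to 4.78 in kidney and 4.61 to 5.42 in marrow. Leaving out 1 mouse gave -0.372 to 0.223 for marrow Cd36, -0.234 to 0.00804 for marrow Mgll, -0.0559 to 0.0616 for kidney Acaca, -0.274 to 0.108 for Fasn, -0.0195 to 0.214 for G0s2, -0.0305 to 0.137 for Lipe and -0.0538 to 0.167 for Pnpla2, and, for the tissue difference, -0.231 to 0.27 for Elovl6 and -0.183 to 0.192 for Pparg. The samples share replicate numbers only by label: same-numbered mice of the 2 treatments had deviations correlated at -0.101 to 0.3 in marrow and -0.175 to 0.0807 in kidney. Same-numbered marrow and kidney libraries of a treatment had deviations correlated at -0.105 to 0.207. The block paired the 2 treatments within a tissue and, for the tissue difference, marrow with kidney of the same treatment and number. With a replicate block the members called were 25 in marrow, 9 higher and 3 lower in kidney, where Plin1 (adjusted p = 0.0466) replaced Plin4 (0.0718), and 25 larger in marrow, with Cd36, Tshr, Klb and Adrb3 lost and Elovl6 turned to -0.0134. The causes were not tested. Depth limits Ucp1 and Cidea in marrow and Adig, Klb and Ucp1 in kidney. Vehicle levels of Adig, Klb and Adrb3 in marrow also lay close to the floor.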

Other observations

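Vehicle kidneys differed among themselves in some fat cell genes. Vehicle mice 1 and 2 held Plin1 at 3.09 and 3.35 CPM against 0.216 to 0.89 CPM in the other 3, Cidea at 1.49 and 0.989 CPM against 0.0863 to 0.283 CPM, and Ucp1 at 1.12 and 1.07 CPM against 0 to 0.485 CPM. Not all members split this way. In the same 2 mice Pparg was at 1.49 and 2.32 CPM against 1.94 to 2.24 CPM, and Plin4 at 5.18 and 7.31 CPM against 5.62 to 5.91 CPM. The ratio of summed Ucp1 counts in kidney, oxaliplatin over vehicle, was 0.296, with an exact 95% interval of 0.18 to 0.473 that covers counting error only, and 23 of the 25 treated counts came from mouse 2. Slc36a2 was at 11.5 CPM in vehicle kidney 5 and at 0.533 to 0.863 CPM in the other vehicle kidneys.

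Among the wider droplet and lipid enzymes, Plin2, the perilipin of most cell types, went from 63.7 ± 7.78 to 147.7 ± 20.8 CPM in marrow (log2 fold change 1.21 ± 0.12), and Mlxipl, the carbohydrate response factor of lipogenesis, from 0.36 ± 0.146 to 3.78 ± 1.95 CPM (3.39 ± 0.42). Acss2, which makes acetyl-CoA from acetate, was lower in both tissues (-0.62 ± 0.13 in marrow and -0.74 ± 0.097 in kidney). Glycerol kinase (Gk) and Mogat1 were lower in kidney (-0.61 ± 0.074 and -1.17 ± 0.18), while Gpat3, Fabp5, Hilpda and Scd2 were higher there, by 0.84 ± 0.15, 0.63 ± 0.16, 1.25 ± 0.38 and 0.69 ± 0.097 on the log2 scale. Of the 31 genes of this list tested in kidney, 4 were higher, 3 lower and 24 not called. By the rule of highest level, only Acss2 and Gk in kidney would be named here. The other values, among them Scd2 in kidney and Acss2 in marrow, were picked after they were seen. Agpat3, which the rule also names in kidney, is not given here.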
